A study of Homo sapiens with 6 samples.

Results

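The outermost 2 Mb of the long arms of 17 human chromosomes (1 to 9, 11 to 17 and 20) held 7508 of the 198179 regions (3.79%) in which tagged histone H2A.Z was found in HEK293T cells. Overlapping or touching peaks of ubiquitylated and of total H2A.Z were merged, and a merged region was counted at a chromosome end when its midpoint lay within 2 Mb of the end of the long arm in the human genome build hg19. The rule uses position and no measured value, but the chromosomes were chosen with earlier results of these data known. The long arms of chromosomes 10, 18, 19, 21, 22 and X were not among them, and their values stand apart wherever they are given.

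HEK293T is an established line derived from human embryonic kidney. All the cells were transfected with plasmids for H2A.Z-1 fused at its C-terminus to Flag and BirA, a biotin ligase, and for ubiquitin with an N-terminal AviTag, the peptide that BirA biotinylates, in a ratio of 3 to 1. They were harvested after 48 h, and nuclei were digested for 30 min with micrococcal nuclease. Ubiquitylated H2A.Z was recovered on streptavidin (2 samples), total tagged H2A.Z on Flag agarose (2 samples), and nucleosomes in general with an antibody against histone H3 (2 samples). The histone was expressed from a plasmid beside the cells' own H2A.Z and no untransfected cells are among the samples. Nothing in the labels says whether the 2 samples of a group came from separate cultures.

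The histone variant H2A.Z is exchanged for ordinary H2A by remodelling complexes of the SWR1 family, mostly beside transcription start sites and at enhancers. Monoubiquitin can be attached to lysines in its C-terminal tail by the RING1 enzymes of Polycomb repressive complex 1, and this form is known from the inactive X chromosome of female cells. The ends of human chromosomes are of several kinds. Many are rich in genes, G and C, and CpG islands, whereas some carry families of olfactory receptor or zinc finger genes or blocks of sequence copied between chromosomes next to the telomere repeats.

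The deposited lists hold 143617 ubiquitylated and 143756 total H2A.Z peaks, 1 list per group, with no value per library. Read depth is therefore unknown, and no test between libraries could be made here. The irreproducible discovery rate (IDR) of each peak and the false discovery rate (FDR) of each region are the authors' own. Wilson 95% intervals on shares cover counting error only, and since neighbouring regions tend to go the same way they are narrower than the true uncertainty. All 7508 regions were kept without a filter on low values. No genome sequence of the files' build was used here, so no bases are printed.

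H2A.Z regions were dense and wide at the long-arm ends. The 17 ends averaged 220.8 ± 124 regions per Mb (SD, n = 17 ends), and the regions covered 12.9 ± 7.90% of the outer 2 Mb. On the 14 of these chromosomes that have regions at both ends, the remainder of the chromosome held on average 65.9 ± 26.4 regions per Mb (SD, n = 14), and the end was denser on 11 of 14. The exceptions were 1q, 3q and 4q, with 19.5, 41.0 and 24.5 regions per Mb. The densest were 7q (487.0 per Mb), 20q (376.0) and 17q (324.5). The remainder was counted at its full length, with unassembled stretches such as centromeres left in. This lowers its density by an amount that was not worked out.

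The median width was 425 bp at the ends (quartiles 270.0 and 718 bp) and 305 bp in the rest of the same 17 chromosomes, taken as everything outside the outer 2 Mb of either arm (quartiles 215 and 471 bp). The end had the larger median on 15 of 17 chromosomes, and 1q (281 bp, against 298 bp in its rest) and 11q (315 bp, against 317 bp) were the exceptions. Regions at 16q (542 bp), 20q (529 bp) and 14q (528 bp) had the largest medians.

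Peaks of ubiquitylated H2A.Z outnumbered those of total H2A.Z at the ends. There were 6707 ubiquitylated and 5320 total H2A.Z peaks, a ratio of 1.26, whereas the rest of the same chromosomes held 102295 ubiquitylated and 106940 total H2A.Z peaks, a ratio of 0.957. In covered sequence the ratio was 1.38 at the ends (3.84 Mb of ubiquitylated and 2.78 Mb of total H2A.Z peaks) and 0.983 in the rest. The ratio of peak numbers exceeded 1 at 16 of 17 ends and was lowest at 3q, at 0.962. Among the listed peaks, IDR values at the ends were close to those elsewhere. The lists hold only peaks with an IDR of at most 0.05, so they cannot show whether repeatability differed by place. The median IDR of ubiquitylated peaks was 0.00105 at the ends and 0.00138 in the rest, and that of total H2A.Z peaks was 0.00332 at the ends and 0.00331 in the rest.

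By the kind of peak they held, 3968 of the 7508 regions (52.9%) had peaks of both forms, 2495 (33.2%) had ubiquitylated peaks only and 1045 (13.9%) had total H2A.Z peaks only. In the rest of the chromosomes these shares were 41.1%, 27.7% and 31.2%. Regions with total H2A.Z peaks only thus made up a smaller part at the ends, and this held for 16 of 17 ends. The exception was again 3q, with 37.8%.

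The direction of difference between the pull-downs was read from the authors' deposited table, which lists regions with an FDR of at most 0.05 and their fold change of ubiquitylated over total H2A.Z. At the long-arm ends 1528 regions were higher in ubiquitylated H2A.Z, or 20.4% (Wilson interval 19.5 to 21.3%), against 9.39% of all merged regions and 8.14% in the rest of the same chromosomes. Regions higher in total H2A.Z numbered 393, or 5.23% (4.75 to 5.76%), against 12.1% of all merged regions and 13.2% in the rest. Regions called in either direction made up 25.6% at the ends and 21.5% of all merged regions. Of the 1921 called regions at the ends 79.5% (77.7 to 81.3%) were higher in ubiquitylated H2A.Z, compared with 38.2% (37.7 to 38.7%) in the rest. The ends, with 3.79% of all regions, held 8.21% of every call towards ubiquitylated H2A.Z and 1.64% of every call towards total H2A.Z. Streptavidin and Flag agarose were each used for 1 form alone, so effects of the reagent and of ubiquitylation on these calls cannot be told apart. At an FDR of at most 0.01, 939 regions at the ends were higher in ubiquitylated H2A.Z (12.5%, against 5.26% of all merged regions) and 225 in total H2A.Z (3.00%, against 7.21%).

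The same direction was seen chromosome by chromosome. The share of called regions higher in ubiquitylated H2A.Z lay above that of the rest of the chromosome at 16 of 17 ends, by 35.5 ± 20.5 percentage points on average over all 17 (SD, n = 17 ends). The Wilson interval lay wholly above the rest at 13 ends and included it at 4, namely 1q, 3q, 5q and 8q. Since neighbouring regions tend to go the same way, these intervals are too narrow, and such counts of ends may be too high. The part of all regions called towards ubiquitylated H2A.Z exceeded the rest by 12.47 ± 11.98 points (16 of 17 ends, with the interval wholly above at 13), and the share higher in total H2A.Z differed from it by -7.09 ± 4.93 points (lower at 14 of 17 ends, with the interval wholly below at 13). The ends covered a wider range, with 22.2 to 100% of called regions higher in ubiquitylated H2A.Z, than the rest of the 17 chromosomes, with 25.2 to 57.9%. Both extremes come from ends with few calls, 18 at 3q and 29 at 4q, and the rest of each chromosome had far more. How much of the wider range is counting error was not tested.

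**Figure D1:**
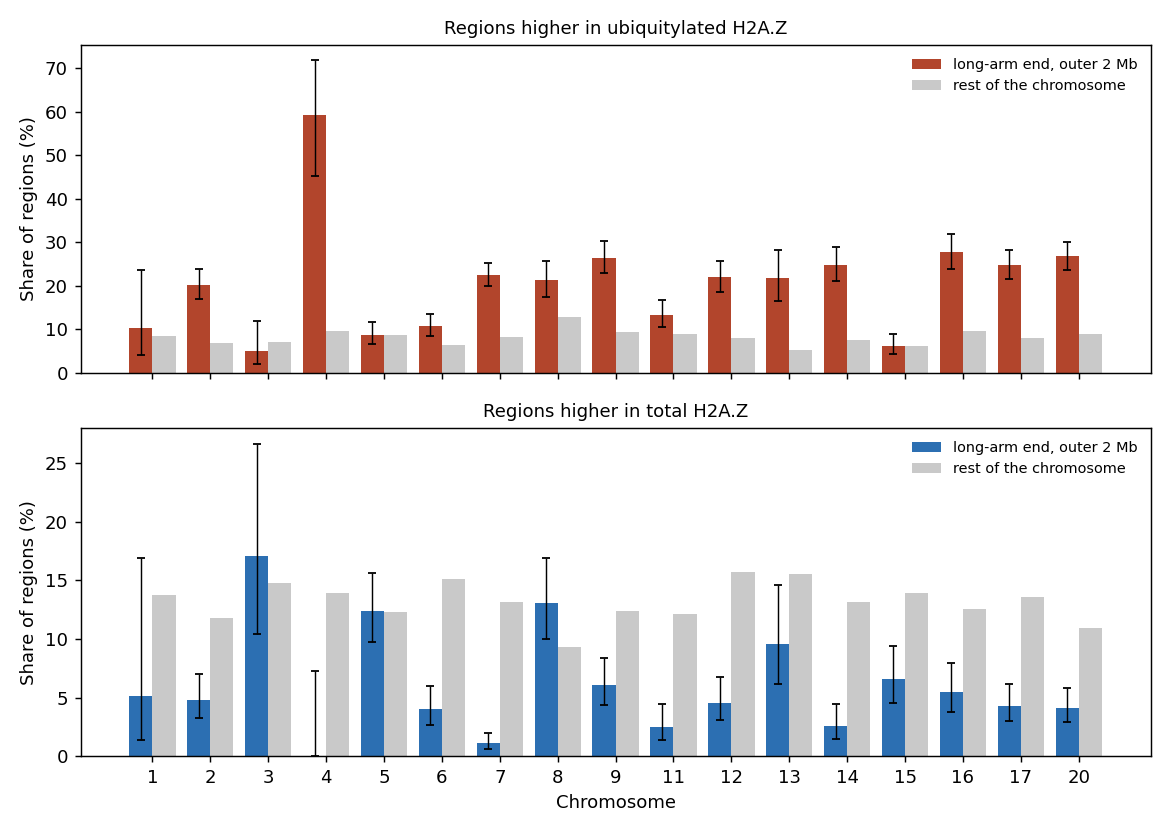
Share of merged regions (%) that were higher in ubiquitylated H2A.Z (upper panel) and in total H2A.Z (lower panel) at each long-arm end (coloured bars, Wilson 95% intervals) and in the rest of the chromosome (grey bars), for 17 chromosomes. The end exceeds the rest at 16 of 17 chromosomes in the upper panel and lies below it at 14 of 17 in the lower one.

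The 17 ends fell along a wide range. At 4q all 29 called regions, of 49 in all, were higher in ubiquitylated H2A.Z (100%). At 7q these were 218 of 229 called regions (95.2%, 91.6 to 97.3%), and at 14q 116 of 128 (90.6%, 84.3 to 94.6%). A group of 7 ends followed, with overlapping intervals, between 80.8 and 86.6%: 20q, 17q, 11q, 16q, 12q, 9q and 2q. Then came 6q with 72.8%, 13q with 69.5%, 1q with 66.7% of only 6 called regions, and 8q with 61.9%.

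At the other side of the range stood 15q, 5q and 3q. At 15q there were 25 regions higher in ubiquitylated and 27 higher in total H2A.Z (48.1%, interval 35.1 to 61.3%), and at 5q there were 43 and 61 (41.3%, 32.4 to 51.0%). At 3q there were 4 and 14 (22.2%, 9.001 to 45.2%), below the 32.0% of the rest of its chromosome but with an interval that includes it. The rest of chromosome 5 had 41.1%. The long arms outside the set spanned a similar range, with 18q at 97.0%, 10q at 90.9%, 22q at 89.1%, 21q at 82.0%, Xq at 73.1% and 19q at 28.6%.

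Gene order next to the telomeres was taken from the RefSeq gene table of GRCh38, a build other than that of the peaks, so the genes below name the neighbourhood of an end and were not matched to single regions. On 4q the outermost protein-coding genes are DUX4, a transcription factor of the early embryo encoded in a repeat array, then FRG2 and FRG1. On 7q they include VIPR2, a receptor for vasoactive intestinal peptide, NCAPG2, a subunit of condensin II, and PTPRN2, a phosphatase-like protein of secretory granules. On 14q, 29 of the outermost 100 genes of any type are segments of the immunoglobulin heavy-chain locus. The outermost protein-coding genes of 14q, listed apart from these segments, include MTA1, a subunit of the NuRD complex.

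Among the ends between 80.8 and 86.6%, the outermost genes include MYT1, a neural transcription factor, and SOX18, an endothelial one, on 20q. They include TBCD, a cofactor of tubulin folding, on 17q, TUBB3, a neuronal tubulin, on 16q, and EHMT1, a histone H3 lysine methyltransferase, on 9q. On 6q lie TBP, the TATA-binding protein, PSMB1, a proteasome subunit, and DLL1, a Notch ligand. The ends with the lowest shares hold RPL35A, a ribosomal protein, on 3q, RACK1, a ribosome-associated scaffold, on 5q, and PCSK6, a proprotein convertase, on 15q. Ribosomal protein genes also lie on ends with higher shares, with RPL8 on 8q and MRPL41 on 9q. The genes named for single ends are examples, picked without a stated rule from the outermost protein-coding genes. Whether any of them goes with these shares was not tested. Olfactory receptor genes make up 25 of the outermost 30 protein-coding genes on 1q, 4 on 5q, 2 on 15q and 0 on the others. Zinc finger genes with a ZNF symbol make up 7 of 30 on 12q and 6 on 8q, and no more than 2 on any other end.

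**Figure D2:**
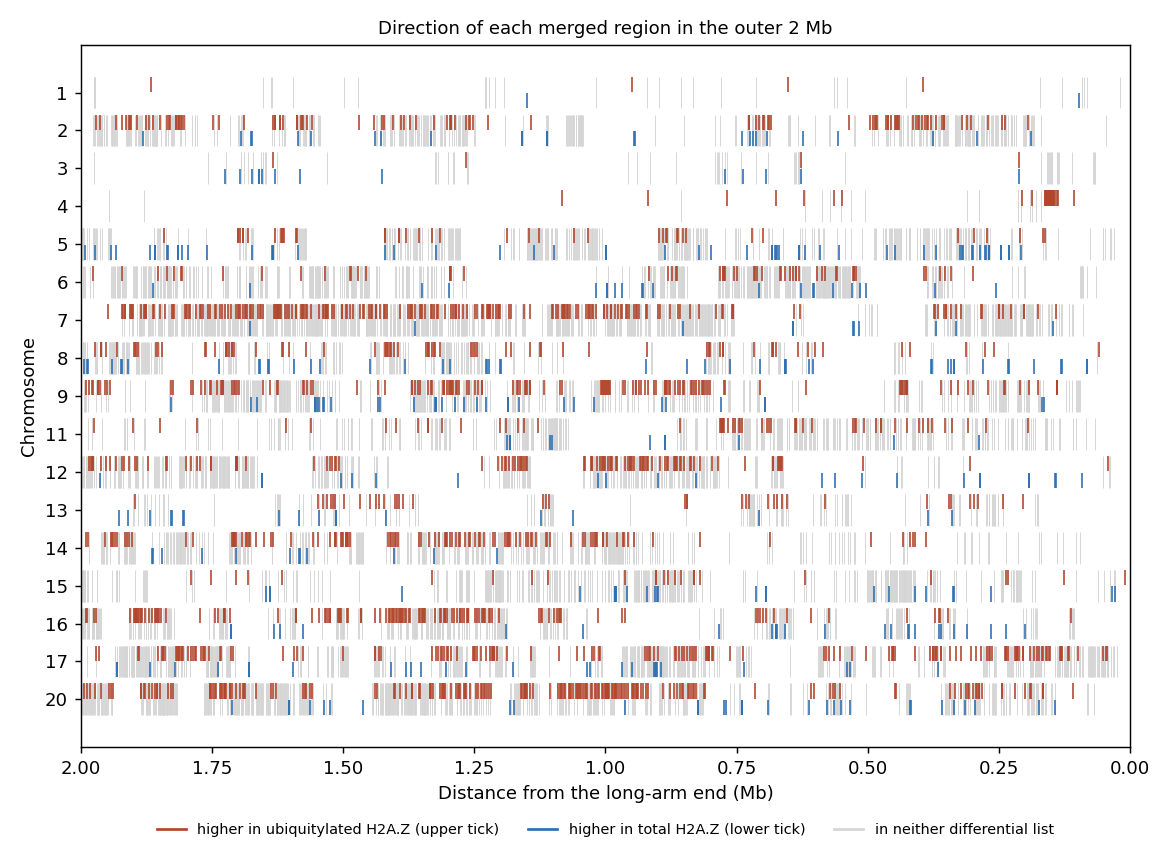
Every merged region in the outer 2 Mb of each long arm, by distance of its midpoint from the chromosome end (Mb, end at the right); red upper ticks are higher in ubiquitylated H2A.Z, blue lower ticks higher in total H2A.Z and grey lines in neither list. Long red series with grey lines between them lie along parts of 7q, 14q, 16q, 17q and 20q. The 22 red calls of the outermost 250 kb of 4q sit together, and blue ticks lie along 5q.

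Calls in 1 direction came in series along the ends. Of 1904 pairs of adjacent called regions 80.7% had the same direction, where the shares of each end alone would give 71.8%. The longest series higher in ubiquitylated H2A.Z, without a call in the other direction, was 81 regions over chr7:157777208-158283545 (506 kb). Its median in the authors' deposited table was 0.58 (log2 fold change). It held 310 merged regions in all, and 51 of the 81 had peaks of both forms. The longest series of 4 other ends were 68 regions over chr16:88791128-89147537 (356 kb), 55 over chr20:61869196-62064949 (195.8 kb), 44 over chr17:80838463-81155407 (317 kb) and 40 over chr14:106157659-106960993 (803 kb). By the authors' deposited table their medians lay between 0.55 and 0.72 (log2 fold change).

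Series higher in total H2A.Z were short. The longest held 15 regions over chr5:180236917-180549140 (312 kb), and its median in the authors' deposited table was -0.68 (log2 fold change). On 6q, 9q and 13q the longest such series held 7 regions each. These 3 ends, like 5q, had 0 ZNF genes among the outermost 30 protein-coding genes. Whether such series go with gene families was not tested. Series of 7 close to the telomere, in which every merged region was called, lay on 12q and 8q, the ends with the most ZNF genes. These were chr12:133562627-133758652 (median -0.88 in the authors' deposited table, as log2) and chr8:146127133-146278389 (151 kb, median -0.64 in the authors' deposited table). Within the outermost 250 kb, 12q had 1 region higher in ubiquitylated and 5 higher in total H2A.Z, and 8q had 1 and 7. Farther in, between 750 and 1000 kb from the end, 12q had 38 and 3.

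In steps of 250 kb, 74 windows had at least 10 called regions. Calls towards ubiquitylated H2A.Z were the more numerous in 66 of them, 6 had fewer of them than towards total H2A.Z and 2 had equal numbers. In 8 windows all calls were higher in ubiquitylated H2A.Z, among them chr16:88849973-89091010 with 46, chr7:157890101-158138342 with 41 and the outermost window of 17q, chr17:80960104-81175386, with 32. The 6 windows of the opposite kind were 3 on 5q, and 1 each on 8q, 16q and 20q. The most lopsided of these lay at chr5:178921310-179160725, with 1 region higher in ubiquitylated and 14 higher in total H2A.Z.

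At 4q the called regions were concentrated close to the telomere. The outermost window, chr4:190935895-191043585, held 30 regions, of which 22 were called towards ubiquitylated and 0 towards total H2A.Z. The distal parts of 4q and 10q carry near-identical repeats, and the sources used here do not say how the authors placed reads that match several sites, so the origin of this signal is uncertain between such copies. The remaining 7 calls of 4q were spread over chr4:190066459-190643984.

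The 10 most significant regions higher in ubiquitylated H2A.Z lay on 6 ends, and 9 of them held ubiquitylated peaks only. The first was chr4:190381789-190382513, 725 bp wide and 768 kb from the end of 4q, with no other region within 50 kb. The authors' deposited table gave it a log2 fold change of 2.13 and an FDR of 7.3e-23. On 8q lay 4 of the 10, and in the authors' deposited table chr8:145676566-145677280 had a log2 fold change of 2.55 (FDR 1.3e-17) and its near neighbour chr8:145685136-145686093 one of 1.86 (FDR 5.7e-15). The largest fold change of any region at the ends was that of chr6:170343298-170343646, 349 bp wide, with 3.58 in the authors' deposited table (FDR 2.6e-15). These peaks were not the most repeatable, since the IDR was 0.0168 for the first 8q region, 0.0432 for its neighbour and 0.0311 for the 6q region.

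The region at chr17:80402157-80403389 had a fold change (log2) of 1.42 by the authors' deposited table (FDR 2.1e-12) and a low IDR of 0.00057. The tenth, chr7:157404067-157407017, was 2951 bp wide and the only one of the 10 with peaks of both forms. Its fold change (log2) was 0.84 in the authors' deposited table (FDR 5.8e-11), and its ubiquitylated peak had an IDR of 4.8e-07. In the authors' deposited table, an FDR under 1e-10 was reached at the ends by 11 regions towards ubiquitylated H2A.Z (0.147%, against 0.0777% of all merged regions) and 0 towards total H2A.Z (against 0.0172%; 0.0949% in either direction). At this limit calls towards ubiquitylated H2A.Z were also the more numerous in the rest of the same chromosomes, with 76 and 28 (73.1%), unlike at an FDR of 0.05.

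The 10 most significant regions higher in total H2A.Z were narrower and less extreme. They were 442 to 950 bp wide, against 349 to 2969 bp in the opposite direction, and the authors' deposited table gave them an FDR between 9.4e-09 and 6.4e-07. The first lay on 12q, 91.6 kb from the end, at chr12:133758127-133758652, with a fold change (log2) of -1.43 by the authors' deposited table. Also on 12q, chr12:133533031-133533472 had -1.60 in the authors' deposited table (FDR 2.1e-08). Then followed chr16:90148600-90149332 (-1.02 in the authors' deposited table, FDR 4e-08) and chr5:179084389-179084917 (-1.05, FDR 4.3e-08). Of the 10, chr6:170589158-170590107 was the only one with peaks of both forms, and its value was -0.73 (log2) in the authors' deposited table. The largest fold towards total H2A.Z was that of chr2:242040873-242041107, 235 bp wide, at -1.63 in the authors' deposited table.

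Taken end by end, the most significant region was higher in ubiquitylated H2A.Z at 13 ends and higher in total H2A.Z at 4, namely 3q, 5q, 15q and 16q. At 16q this single region stood against the majority there, where 130 regions were called towards ubiquitylated and 26 towards total H2A.Z. The FDR of these 17 regions ran from 7.3e-23 at 4q to 0.0022 at 1q, where chr1:248854937-248855613 had a fold change (log2) of 0.68 by the authors' deposited table.

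Fold changes at the ends were modest in both directions. For regions higher in ubiquitylated H2A.Z the median in the authors' deposited table was 0.63 at the ends (log2, quartiles 0.49 and 0.83) and 0.69 in the rest. In the opposite direction the medians by the authors' deposited table were -0.70 at the ends and -0.76 in the rest. A 2-fold or larger change was listed for 184 regions towards ubiquitylated H2A.Z (2.45% of regions at the ends, against 1.47% of all merged regions) and 55 towards total H2A.Z (0.733%, against 2.39%), and 3.86% of all merged regions changed this much in either direction. Of regions higher in ubiquitylated H2A.Z, 40.1% had peaks of both forms at the ends and 24.3% in the rest. Peaks of both forms were more common at the ends among other regions too. They were held by 33.3% against 25.9% of regions higher in total H2A.Z, and by 57.7% against 45.4% of regions in neither list. Among all regions these shares were 52.9% and 41.1%. Among regions with ubiquitylated peaks only, the median by the authors' deposited table was 0.76 at the ends and 0.76 in the rest.

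Regions higher in ubiquitylated H2A.Z were wide. Their median was 654.5 bp at the ends and 484 bp in the rest, regions higher in total H2A.Z had medians of 427 and 358 bp, and regions in neither list 378 and 289 bp. At the ends 913 of the 1528 regions higher in ubiquitylated H2A.Z (59.8%) had ubiquitylated peaks only, 612 had peaks of both forms and 3 had total H2A.Z peaks only. Of the 393 higher in total H2A.Z, 260 (66.2%) had total H2A.Z peaks only, 131 had both and 2 had ubiquitylated peaks only.

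Among regions with peaks of both forms, where neither form was missing from its list, the direction was the same. At the ends 15.4% of 3968 such regions were called towards ubiquitylated and 3.30% towards total H2A.Z. Elsewhere on these chromosomes 4.81% of 59764 were called towards ubiquitylated and 8.29% towards total H2A.Z. The share of called regions higher in ubiquitylated H2A.Z was thus 82.4% (79.5 to 84.9%) at the ends and 36.7% (35.7 to 37.8%) in the rest. Of the regions with ubiquitylated peaks only, 36.6% were called higher in ubiquitylated H2A.Z at the ends and 22.2% in the rest. Of those with total H2A.Z peaks only, 24.9% at the ends and 31.2% in the rest were called higher in total H2A.Z. Calls among regions with peaks of 1 form nearly all went towards that form. At the ends they numbered 913 against 2 with ubiquitylated peaks only, and 260 against 3 with total H2A.Z peaks only. Such regions could therefore hardly show the opposite direction.

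The surplus faded with distance from the telomere. In steps of 2 Mb inward on the same 17 chromosomes, regions called towards ubiquitylated H2A.Z made up 20.4% in the outer 2 Mb, 14.4% at 2 to 4 Mb, 10.1% at 4 to 6 Mb and 7.76% at 6 to 8 Mb. The share higher in total H2A.Z was 5.23%, 3.99%, 7.38% and 8.11% over the same steps. In the steps between 10 and 20 Mb, 5.51 to 7.39% were higher in ubiquitylated H2A.Z and at least 11.6% in total H2A.Z. Of called regions, 79.5% were higher in ubiquitylated H2A.Z in the outer 2 Mb and 78.3% at 2 to 4 Mb, with overlapping intervals, then 57.8%, 48.9% and 47.6% in the steps up to 10 Mb. The 2 Mb limit therefore cuts through a longer stretch of ubiquitylated regions.

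**Figure D3:**
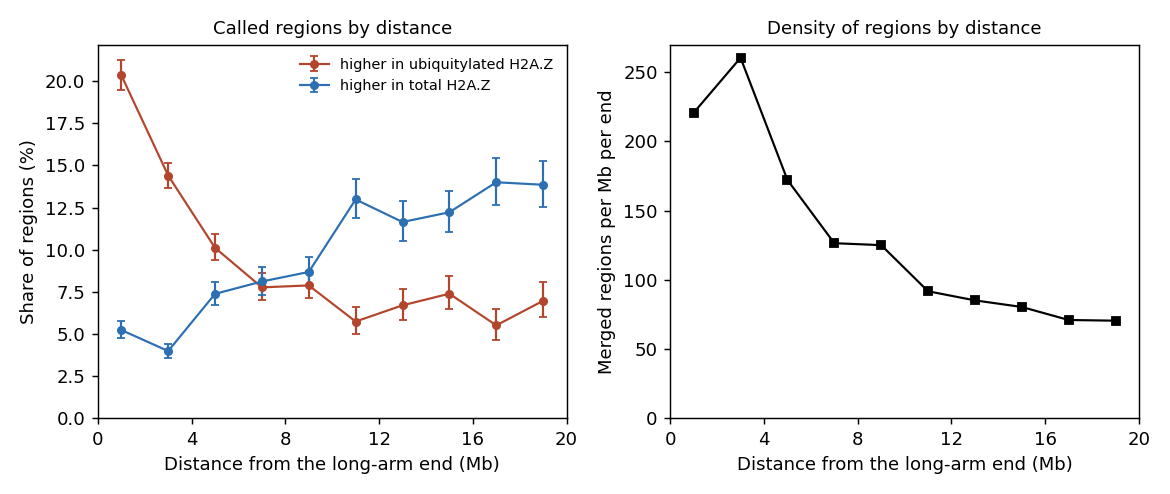
Left, share of merged regions (%) higher in each form of H2A.Z by distance from the long-arm end (Mb, 2 Mb steps pooled over 17 chromosomes, Wilson 95% intervals); right, merged regions per Mb per end in the same steps. The ubiquitylated share declines from 20.4% to 7.76% by 6 to 8 Mb, and the density is highest at 2 to 4 Mb, with 260.5 regions per Mb.

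Within the outer 2 Mb the balance was weaker next to the telomere. In the outermost 0.5 Mb 237 regions were called towards ubiquitylated and 88 towards total H2A.Z, so that 72.9% (67.8 to 77.5%) of calls were higher in ubiquitylated H2A.Z. This share was 74.4% at 0.5 to 1 Mb, 86.7% (83.7 to 89.3%) at 1 to 1.5 Mb and 80.4% at 1.5 to 2 Mb. The outermost 0.5 Mb also had fewer regions (160.1 per Mb) of smaller median width (376 bp) than the part at 1 to 1.5 Mb (253.4 per Mb and 459 bp). In share of calls it lay above the rest of its own chromosome at 13 of 17 ends, and the part at 1 to 1.5 Mb at 16 of 17. These counts set no least number of calls, and at 1 to 1.5 Mb 1q and 4q had only 1 call each.

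Local density and width moved with the direction of the calls, at the ends and elsewhere. A region at the ends had a median of 42 other regions within 50 kb, and a region in the rest had 16. Among regions with 40 or more such neighbours, 90.1% of called regions were higher in ubiquitylated H2A.Z at the ends (88.0 to 91.9%) and 62.8% in the rest (61.3 to 64.3%). With 10 to 39 neighbours these shares were 72.2% and 36.9%, and with fewer than 10 they were 49.2% and 32.3%. In this sparsest class at the ends, 62 regions went towards ubiquitylated and 64 towards total H2A.Z. The ends had the higher share in each density class, and 54.7% of regions at the ends, against 16.6% in the rest, fell in the densest one. How much of the difference goes with density or width was not tested.

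**Figure D4:**
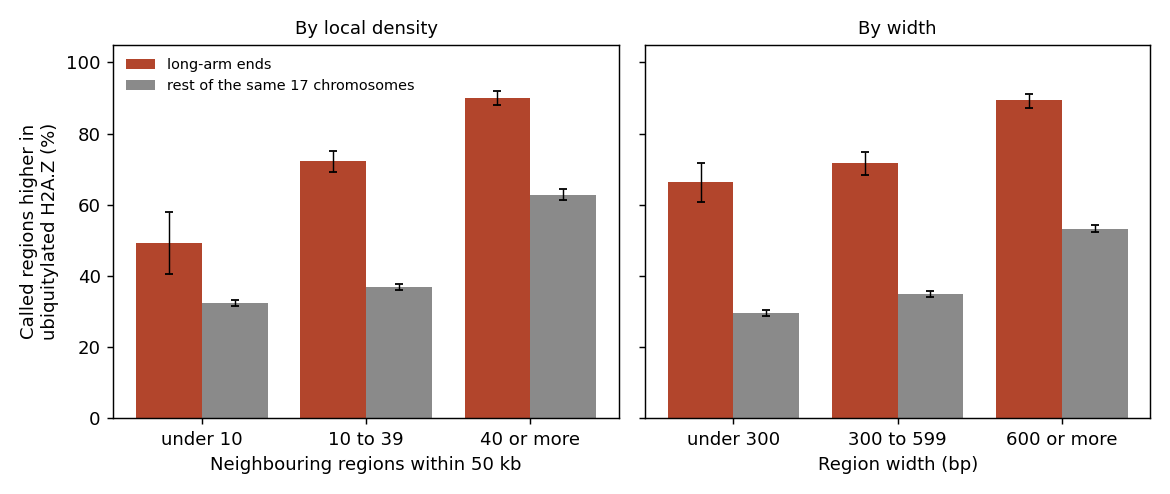
Share of called regions (%) higher in ubiquitylated H2A.Z at the long-arm ends (red) and in the rest of the same 17 chromosomes (grey), by number of neighbouring regions within 50 kb (left) and by region width (right); whiskers are Wilson 95% intervals. The red bar is the taller in all 6 classes, and both colours are highest in the densest and widest ones.

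By width, 89.3% of called regions of at least 600 bp were higher in ubiquitylated H2A.Z at the ends and 53.3% in the rest. For regions under 300 bp the shares were 66.4% and 29.5%. In the widest class the end lay above the rest of its chromosome at 15 of the 15 ends with at least 10 calls, and in the narrowest at 12 of 14. With 40 or more neighbours and at least 600 bp, 519 regions were called towards ubiquitylated and 27 towards total H2A.Z at the ends (95.1%), compared with 76.4% in the rest. In the sparsest class only 3 ends had at least 10 calls, and 1 of them lay above its own chromosome. Whether gene content or base composition varies with these shares was not tested.

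Long-arm and short-arm ends were alike in kind but not chromosome by chromosome. The outer 2 Mb of the short arms of all autosomes with regions there held 6372 regions. At the long-arm ends 79.5% of called regions were higher in ubiquitylated H2A.Z, and at the short-arm ends 74.4% (72.1 to 76.5%). On the 14 chromosomes with both ends in the comparison, the long arm had the higher share on 10 and the short arm on 4, with a mean difference of 6.53 ± 37.8 percentage points (SD, n = 14), so the difference was smaller than its spread.

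Single chromosomes differed in both directions. On chromosome 20 the share was 86.6% at the long-arm end and 25.5% at the short-arm end, where 12 regions were called towards ubiquitylated and 35 towards total H2A.Z. On chromosome 9 the long-arm end had 81.2% and the short-arm end 33.3% of 9 calls, on chromosome 12 the long-arm end had 82.7% and the short-arm end 42.2%, and on chromosome 17 the long-arm end had 85.1% and the short-arm end 47.7%. Chromosomes 5 and 8 had the opposite order, with 41.3% and 61.9% at the long-arm ends and 85.5% and 93.9% at the short-arm ends. On chromosome 3 the long-arm end had 22.2%, and all 7 called regions of the short-arm end were higher in ubiquitylated H2A.Z.

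**Figure D5:**
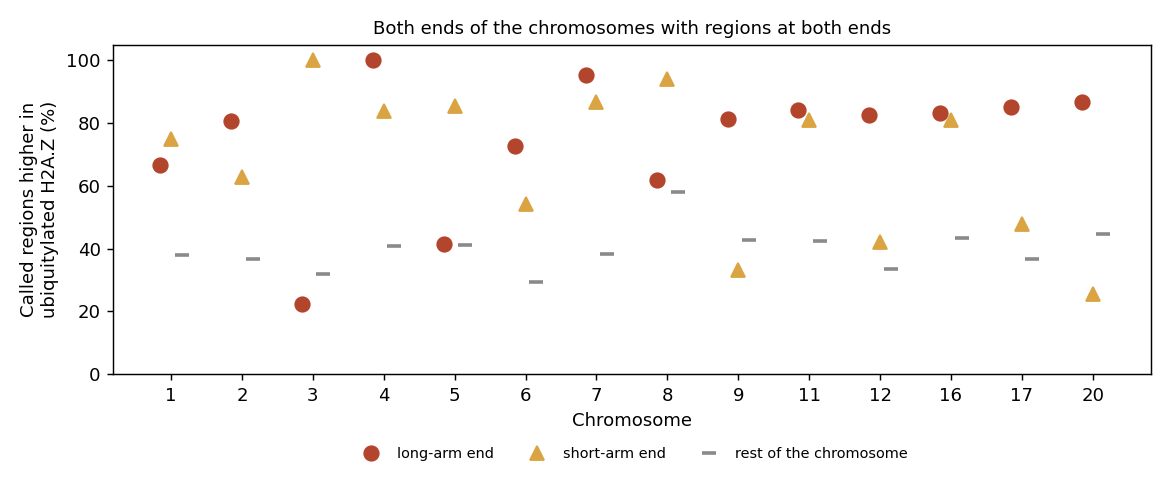
Share of called regions (%) higher in ubiquitylated H2A.Z at the long-arm end (circles), the short-arm end (triangles) and in the rest of the chromosome (dashes), for the 14 chromosomes with regions at both ends. Circles lie above triangles on 10 chromosomes and below them on 1, 3, 5 and 8.

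The widest regions at the ends were covered by several peaks. The widest, chr15:102298067-102305292, spanned 7226 bp with 1 ubiquitylated and 6 total H2A.Z peaks and was in neither differential list. It was followed by chr16:88500699-88506510 (5812 bp, 0.50 on the log2 scale in the authors' deposited table) and chr9:139554770-139560048 (5279 bp, 0.37 in the authors' deposited table). The most repeatable ubiquitylated peaks lay in chr7:157455010-157456415 (IDR 5.6e-08), chr4:190838512-190838781 and chr7:157755669-157755977. The first of these was slightly higher in ubiquitylated H2A.Z, by 0.36 on the log2 scale in the authors' deposited table (FDR 0.01). The most repeatable total H2A.Z peaks lay in chr3:197391514-197392094, chr9:139218685-139219615 and chr17:81014377-81016311. All 6 of these regions had peaks of both forms.

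The regions nearest to the 2 Mb limit were too few to compare its sides. Of the 17 regions nearest to it on the inside, 2 were called towards ubiquitylated and 1 towards total H2A.Z, and of the 17 nearest on the outside, 2 and 2 were. Of all merged regions, 9.39% were called towards ubiquitylated and 12.1% towards total H2A.Z. Some of the nearest regions lay far from the limit, up to 72.9 kb inside and 723.3 kb outside. Their median widths were 458 bp inside and 460.0 bp outside. The closest were chr8:144359945-144360867, 0.406 kb inside, and chr20:61029236-61029907, 0.429 kb outside, and neither was in a differential list.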

How the data were processed

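Per the submitters' processing notes the authors used Bowtie, SAMtools, MACS2 and edgeR with build hg19, and no version, setting or role is stated. The authors deposited 1 peak list each for ubiquitylated and total H2A.Z; column 5, never above 0.05, was read as the IDR, a q-value-like measure (local or global is not stated). The 2 differential lists the authors deposited give, per region, an FDR and a fold change of ubiquitylated over total H2A.Z, read here as log2 since the authors listed edgeR. Its base, test and normalization are not stated, so directions are relative to an unknown centring. The authors' FDR values, of at most 0.05, are q-values.

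Starts were raised by 1 to be 1-based. Peaks were merged where they overlapped or touched, checked against bedtools, and all 42574 differential regions matched a merged region exactly. Distances from a chromosome end are exact to about 10 kb. Shares were compared by chromosome without a test, since no value per library exists. Intervals are Wilson at 95% and were checked on simulated data. The simulated regions were drawn independently, so the check does not cover neighbours that go the same way. The chromosome ends, lists and comparisons were chosen with earlier results of these data known. Named regions were the 10 of lowest FDR per direction, the largest fold per direction, the lowest FDR of each end, the 3 widest, the 3 of lowest IDR per peak list, the longest series, and those nearest the limit; windows of 250 kb were chosen after their values were seen. Tables were handled with pandas 2.3.3 and numpy 2.4.6 under Python 3.11.15, intervals with scipy 1.17.1, and plots with matplotlib 3.10.9. The H3 samples enter no comparison.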

Additional observations from a re-analysis of the deposited data

How the results depend on the processing

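No paired analysis was possible because no library has values of its own in these lists, which also kept single replicates from being omitted. Of 114 alternative values 71 stayed within the interval or spread of the reported value and 43 moved beyond it. Shares were judged by their Wilson interval. Regions per Mb, covered share and width were judged by the SD over ends, a wide limit. By it 181.0 regions per Mb in the outer 10 Mb still stayed. Most that stayed came from leaving out 1 end at a time, where 47 of 51 stayed and 4 moved. Of the 63 other alternatives 24 stayed and 39 moved. In 1 alternative, regions with fewer than 10 neighbours, calls towards total H2A.Z were the more numerous (62 ubiquitylated, 64 total). With each end left out in turn, the share of regions higher in ubiquitylated H2A.Z ran from 19.6 to 21.2%, that higher in total H2A.Z from 4.73 to 5.85%, and the share of calls higher in ubiquitylated H2A.Z from 77.4 to 81.7%.

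In that order of measures, the outer 1 Mb gave 18.9%, 6.73% and 73.8%, the outer 3 Mb 18.4% and 4.60% for the first 2, the outer 5 Mb 15.9% and, for the share of calls, 75.7%, and the outer 10 Mb 13.2%, 6.16% and 68.2%. With the 6 other long-arm ends the first was 21.3%. An FDR of at most 0.01 gave 12.5% (5.26% of all merged regions) and 3.00% (7.21% of all), and a log2 fold change of at least 1 gave 2.45%, 0.733% and 77.0%. Merging peaks within 500 bp gave 27.4% and 7.03%, with 38 of 4171 regions holding calls of both directions. Regions with peaks of both forms gave 15.4%, 3.30% and 82.4%, covered base pairs 29.7%, 4.37% and 87.2%, and the mean over ends 6.09% and 73.7% for the last 2. The share of calls was 49.2%, 72.2% and 90.1% from sparse to dense, and 66.4%, 71.7% and 89.3% from narrow to wide. With a 50% overlap of both peaks, 45.2% of regions held both forms; with IDR under 0.01, 42.1% held ubiquitylated peaks only, 15.2% total H2A.Z peaks only and 42.7% both. By class of region at the ends, with no IDR limit added, the median width was 340.0 bp with ubiquitylated peaks only, 285 bp with total H2A.Z peaks only and 565 bp with both. Keeping touching peaks apart, or leaving out the outer 100 kb, moved none of the 3 shares beyond its interval. The replicate block was not run, and unknown depth limits every value.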
